A study of Mus musculus with 16 samples.

Results

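The genes of 10 transcription factors and cofactors of B cells were followed across sorted peritoneal tumour-associated macrophages (TAMs): Pax5, Ebf1, Ikzf3, Pou2af1, Bach2, Spib, Irf4, Irf8, Zbtb32 and Bhlhe41. Their members were all probe sets annotated with exactly 1 of these gene symbols, which gave 23 probe sets for 10 genes, of 45101 probe sets and 18194 genes on the array. The 16 arrays fell into 4 groups of 4. They were CCR2- TAMs of RbpjiΔEC mice, CCR2- TAMs of control mice, CCR2+ TAMs of RbpjiΔEC mice and CCR2+ TAMs of control mice. All mice were C57BL/6N females that received 1 mg of tamoxifen by gavage at 8 to 12 weeks of age. They were given ID8-luc cells, a luciferase-expressing mouse ovarian cancer line, in the peritoneal cavity 3 weeks later, and the tumours grew for 4 weeks. The cells were washed out of the cavity and sorted as CD45+ CD11b+ F4/80+ cells with or without CCR2, a chemokine receptor of inflammatory monocytes. Rbpj encodes the factor through which Notch receptors act on DNA, and it is the gene deleted in the endothelium of RbpjiΔEC mice. The Cre line behind the deletion, and whether control mice carried it, are not given in the sources used here, and the labels do not say whether each array came from a separate animal.

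B cell identity rests on a small network of transcription factors. Ebf1 and Pax5 commit progenitors to the B lineage and switch on the genes of the B cell receptor and its signalling chains, while Pax5 also represses genes of other lineages. Mature B cells add cofactors and repressors that tune germinal centre entry, self-renewal and the step to plasma cells. Irf4, Irf8 and Bach2 also act in myeloid cells, so their RNA alone does not mark a B cell.

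The 10 genes had been brought together as B cell genes after the difference between the CCR2- and CCR2+ arrays was known. Values of that comparison are therefore given as a description, with no test. The comparison of RbpjiΔEC with control mice within each sort label was tested with limma, over all genes. The choice of the 10 genes was made with earlier results of these data known. All levels are log2 intensities after quantile normalization. They may be compared between arrays for 1 probe set, but not between probe sets. The tryptophan biosynthesis control probe sets, bacterial sequences that serve as a guide to the floor, read 6.03 to 6.72, and the median of all probe sets was 7.83.

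The labels were checked against the markers of the sort. Adgre1, which encodes F4/80, averaged 9.08 ± 0.19 and 9.21 ± 0.24 in the CCR2- arrays of RbpjiΔEC and control mice, against 13.24 ± 0.16 and 13.25 ± 0.14 in the CCR2+ arrays (SD, n = 4 each). All 9 measured macrophage markers were lower in every CCR2- array than in every CCR2+ array of the same genotype, and all 7 measured B cell markers were higher. The summed linear intensity of the B cell markers was 48522 to 50183 and 47380 to 50692 in the CCR2- arrays of RbpjiΔEC and control mice, against 1023 to 1063 and 941 to 1161 in the CCR2+ arrays. The macrophage sums were 5605 to 7184 and 6723 to 14958 in the CCR2- arrays, against 62942 to 70595 and 64703 to 70615 in the CCR2+ arrays. Ccr2 itself averaged 8.94 ± 1.32 and 9.99 ± 1.08 in the CCR2- arrays, against 7.69 ± 0.47 and 7.99 ± 1.05 in the CCR2+ arrays (SD, n = 4 each), with overlap in both genotypes, and the means go against the order that the labels give. The data thus go against the name TAM for the CCR2- arrays, and both names below stand for what the arrays are labelled. The deposited columns also differed in kind, since array means lay between 481 and 762 in the CCR2- columns and between 821 and 827 in the CCR2+ columns. The label and this difference cannot be told apart. Rbpj averaged 10.35 ± 0.21 and 10.44 ± 0.23 in the CCR2- arrays of RbpjiΔEC and control mice and 11.43 ± 0.29 and 11.36 ± 0.16 in the CCR2+ arrays (SD, n = 4 each), but endothelial deletion is not checked by RNA of sorted leukocytes.

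The promoters of 9 of the 10 genes were found in the RefSeq table (build GRCm38.p6), in 12 windows of 250 bases before the start. Windows of 3 genes are shown, with the matches in capitals. The rule was to show windows with the octamer ATGCAAAT, the composite of an Ets and an Irf site (GGAANNGAA) or the paired Ebf1 site (CCCNNGGG). It gave Bach2, with the composite, and Spib, with the paired Ebf1 site. The Bhlhe41 window was added after the matches were seen, for its E-box (CACGTG), since the product of Bhlhe41 itself binds E-boxes. Windows in which only the Ikaros motif TGGGAA was found were counted but are not shown.
Bach2 (chr4:32417185-32417434, plus strand): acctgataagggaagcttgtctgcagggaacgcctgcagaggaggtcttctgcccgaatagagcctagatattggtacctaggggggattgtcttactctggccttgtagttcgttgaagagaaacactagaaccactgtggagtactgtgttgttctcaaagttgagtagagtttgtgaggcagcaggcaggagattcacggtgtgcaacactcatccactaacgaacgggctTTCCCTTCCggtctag
Spib (chr7:44532072-44532321, minus strand): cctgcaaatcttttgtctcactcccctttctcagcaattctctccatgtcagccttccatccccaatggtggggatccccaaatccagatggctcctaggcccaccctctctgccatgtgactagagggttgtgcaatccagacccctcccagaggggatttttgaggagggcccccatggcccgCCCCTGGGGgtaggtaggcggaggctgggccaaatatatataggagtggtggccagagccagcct
Bhlhe41 (chr6:145865421-145865670, minus strand): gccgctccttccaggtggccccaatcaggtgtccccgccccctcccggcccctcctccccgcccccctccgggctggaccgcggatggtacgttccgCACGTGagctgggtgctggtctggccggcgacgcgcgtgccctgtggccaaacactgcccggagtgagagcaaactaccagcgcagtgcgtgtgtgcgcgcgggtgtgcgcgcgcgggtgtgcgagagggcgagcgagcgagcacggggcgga
The capitals begin 16 bases before the start in Bach2, where the match lies on the other strand, 65 bases before it in Spib, where 2 matches overlap, and 153 bases before it in Bhlhe41. Both strands were searched, and among all 32851 windows of the same length the Ets-Irf composite was found in 6.99%, the paired Ebf1 site in 11.8% and the E-box in 6.02%. Each of these 3 motifs was found in 1 of the 12 windows. The Ikaros motif TGGGAA was found in 2, of Ebf1 and Irf8, against 21.6% of all windows. The octamer ATGCAAAT, through which the Pou2af1 coactivator is recruited, was found in 0 of the 12, against 1.6% of all. A match describes the letters of these windows and does not show binding.

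Of the 10 genes, 9 were higher in every CCR2- array than in every CCR2+ array, in RbpjiΔEC mice and in control mice alike. The exception in both was Irf8. Genes with no overlap in this direction made up 20.7% of all 18194 genes in RbpjiΔEC mice and 19.5% in control mice, and none of the 10 was lower throughout, against 17.4% and 17.9% of all genes. Since the genes were chosen on this contrast, the count is given with no reading. The differences, CCR2- minus CCR2+, covered 0.96 to 5.90 in RbpjiΔEC mice and 1.06 to 5.96 in control mice. Their medians were 3.14 and 3.12, against 0.03 and 0.03 over all genes. In sorted bulk RNA, fewer cells of a type and less RNA per cell cannot be told apart.

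**Figure D1:**
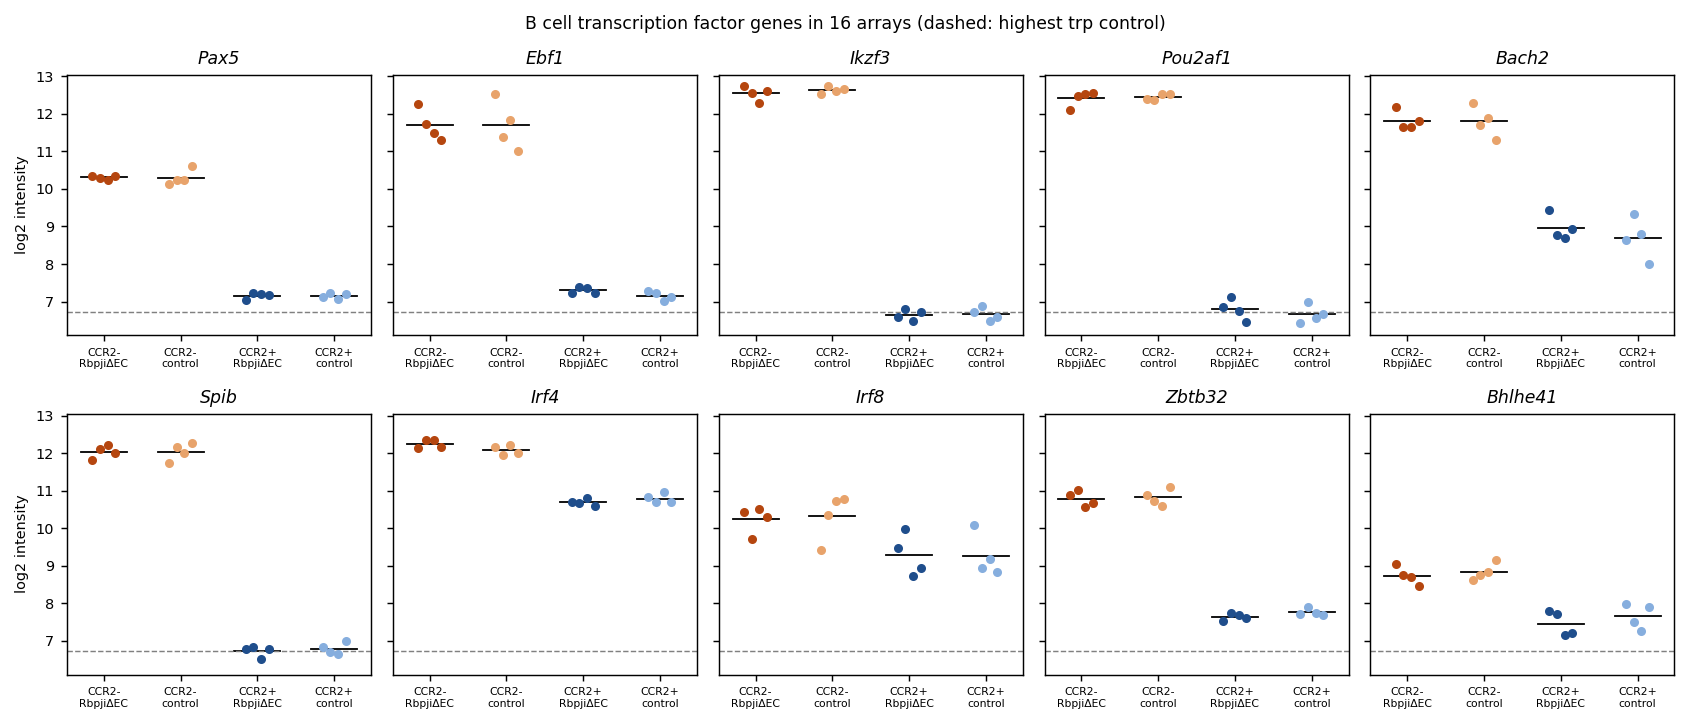
Log2 intensity of the probe set that stands for each of the 10 genes, 1 panel per gene, with 1 point per array and a bar at the mean of each group of 4 arrays and a dashed line at the highest control probe set, 6.72. The CCR2- points lie above the CCR2+ points in every panel but that of Irf8, where the lowest CCR2- array read 9.41 and the highest CCR2+ array 10.08.

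Pax5 and Ebf1, the factors of B lineage commitment, were far above the control probe sets in the CCR2- arrays. Pax5 read 10.35, 10.28, 10.25 and 10.35 in CCR2- arrays of RbpjiΔEC mice and 10.12, 10.23, 10.23 and 10.60 in those of control mice, against 7.04, 7.23, 7.21 and 7.18 in CCR2+ arrays of RbpjiΔEC mice and 7.13, 7.24, 7.07 and 7.21 in those of control mice. The 2 blocks of 8 arrays were 2.88 apart at their nearest, and within each block the genotypes overlapped. The difference was 3.14 (SE 0.10) in RbpjiΔEC mice, an 8.83-fold higher intensity, and 3.13 (SE 0.10) in control mice, 8.77-fold. The other Pax5 probe set, 1421765_at, gave 3.24 (SE 0.17) in RbpjiΔEC mice and 2.91 (SE 0.17) in control mice.

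Ebf1 read 12.25, 11.74, 11.49 and 11.30 in the CCR2- arrays of RbpjiΔEC mice and 12.54, 11.38, 11.84 and 11.00 in those of control mice, against 7.22, 7.40, 7.35 and 7.23 in the CCR2+ arrays of RbpjiΔEC mice and 7.27, 7.22, 7.02 and 7.12 in those of control mice. This probe set, 1457441_at, spread over 1.54 among the CCR2- arrays, the widest of the 10 genes. The difference was 4.40 (SE 0.25) in RbpjiΔEC mice and 4.53 (SE 0.25) in control mice. The other 4 Ebf1 probe sets differed by 4.10 to 5.39 in RbpjiΔEC mice and by 4.27 to 5.49 in control mice. For 3 of them, 7 or 8 of the 8 CCR2+ arrays lay at or below the highest control probe set, so their differences may understate the ratio.

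Ikzf3, Pou2af1 and Spib differed by over 5 log2 units on the probe sets that stand for them. Ikzf3 encodes Aiolos, an Ikaros family zinc finger protein that restrains B cell activation. It read 12.73, 12.56, 12.28 and 12.62 in the CCR2- arrays of RbpjiΔEC mice and 12.53, 12.73, 12.60 and 12.67 in those of control mice, against 6.58, 6.81, 6.49 and 6.71 in the CCR2+ arrays of RbpjiΔEC mice and 6.72, 6.88, 6.49 and 6.60 in those of control mice. The lowest CCR2- array stood 5.39 above the highest CCR2+ array, the widest gap of the 23 probe sets. The difference was 5.90 (SE 0.11) in RbpjiΔEC mice, 59.6-fold, and 5.96 (SE 0.11) in control mice, 62.2-fold. Its other probe sets, 1441088_at and 1453378_at, gave 4.80 (SE 0.12) and 3.75 (SE 0.14) in RbpjiΔEC mice, and the mean of its 3 probe sets differed by 4.82 in RbpjiΔEC mice and 4.81 in control mice.

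Pou2af1 encodes OCA-B, the B cell coactivator of octamer-binding factors. Its 1 probe set read 12.09, 12.47, 12.54 and 12.56 in the CCR2- arrays of RbpjiΔEC mice and 12.40, 12.37, 12.53 and 12.54 in those of control mice, against 6.85, 7.12, 6.74 and 6.46 in the CCR2+ arrays of RbpjiΔEC mice and 6.42, 7.00, 6.57 and 6.68 in those of control mice. The difference was 5.62 (SE 0.15) in RbpjiΔEC mice and 5.79 (SE 0.15) in control mice. Spib, which encodes an Ets family factor related to that of Spi1 and acts in B cells and plasmacytoid dendritic cells, read 11.81, 12.12, 12.22 and 12.00 in the CCR2- arrays of RbpjiΔEC mice and 11.73, 12.15, 12.00 and 12.26 in those of control mice, against 6.79, 6.84, 6.53 and 6.79 in the CCR2+ arrays of RbpjiΔEC mice and 6.84, 6.70, 6.65 and 6.99 in those of control mice. Spib differed by 5.30 (SE 0.12) in RbpjiΔEC mice and 5.24 (SE 0.12) in control mice. At or below the highest control probe set lay 6 of 8 CCR2+ arrays for Ikzf3, 4 for Pou2af1 and 3 for Spib, so that these 3 differences may also understate the ratio.

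Bach2 and Zbtb32 are repressors. Bach2 holds back the plasma cell programme and supports class switching, and Zbtb32 encodes a zinc finger protein that limits memory B cell responses. Bach2 read 12.18, 11.66, 11.66 and 11.80 in the CCR2- arrays of RbpjiΔEC mice and 12.28, 11.71, 11.90 and 11.30 in those of control mice, against 9.45, 8.78, 8.70 and 8.93 in the CCR2+ arrays of RbpjiΔEC mice and 8.63, 9.33, 8.79 and 8.01 in those of control mice. The 2 blocks of 8 arrays were 1.86 apart at their nearest, and the genotypes overlapped within each. The difference was 2.86 (SE 0.25) in RbpjiΔEC mice and 3.11 (SE 0.25) in control mice, and the other 2 probe sets gave 2.95 and 2.39 in RbpjiΔEC mice and 3.08 and 2.40 in control mice. Zbtb32 read 10.88, 11.02, 10.56 and 10.66 in the CCR2- arrays of RbpjiΔEC mice and 10.88, 10.73, 10.58 and 11.10 in those of control mice, against 7.53, 7.73, 7.69 and 7.61 in the CCR2+ arrays of RbpjiΔEC mice and 7.71, 7.90, 7.73 and 7.70 in those of control mice. Its difference was 3.14 (SE 0.12) in RbpjiΔEC mice and 3.06 (SE 0.12) in control mice. Its other probe set, 1447330_at, did not show it, with differences of 0.23 (SE 0.16) and 0.09 (SE 0.16), and read at most 7.11 on any array. With the mean of both probe sets Zbtb32 differed by 1.69 in RbpjiΔEC mice and 1.58 in control mice.

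Irf4, Irf8 and Bhlhe41 differed by less than 2 log2 units between the labels. All their CCR2+ arrays read above the control probe sets, as they did on the probe sets that stand for Pax5, Ebf1, Bach2 and Zbtb32. Irf4, which acts in class switching and plasma cell formation and also in macrophages and dendritic cells, read 12.13, 12.35, 12.35 and 12.16 in the CCR2- arrays of RbpjiΔEC mice and 12.15, 11.95, 12.21 and 11.99 in those of control mice, against 10.71, 10.68, 10.80 and 10.59 in the CCR2+ arrays of RbpjiΔEC mice and 10.83, 10.69, 10.96 and 10.70 in those of control mice. The labels did not overlap, with a nearest gap of 0.99. The difference was 1.55 (SE 0.09) in RbpjiΔEC mice and 1.28 (SE 0.09) in control mice, and on the intensities as deposited it was 0.92 and 0.70. Irf4 1421174_at gave 1.27 (SE 0.13) in RbpjiΔEC mice and 0.85 (SE 0.13) in control mice, with a nearest gap of 0.36. Bhlhe41, a circadian basic helix-loop-helix repressor that mouse B-1a cells need, read 9.06, 8.75, 8.71 and 8.46 in the CCR2- arrays of RbpjiΔEC mice and 8.62, 8.75, 8.83 and 9.15 in those of control mice, against 7.79, 7.71, 7.15 and 7.20 in the CCR2+ arrays of RbpjiΔEC mice and 7.97, 7.51, 7.27 and 7.89 in those of control mice. The groups were 0.49 apart at their nearest, and the difference was 1.28 (SE 0.19) in RbpjiΔEC mice and 1.18 (SE 0.19) in control mice. Bhlhe41 1457096_at gave 1.39 (SE 0.09) in RbpjiΔEC mice and 1.47 (SE 0.09) in control mice.

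Irf8, a factor of monocyte and dendritic cell development that also acts in germinal centre B cells, was the gene whose labels overlapped. It read 10.44, 9.71, 10.52 and 10.29 in the CCR2- arrays of RbpjiΔEC mice and 9.41, 10.36, 10.72 and 10.79 in those of control mice, against 9.47, 9.99, 8.72 and 8.95 in the CCR2+ arrays of RbpjiΔEC mice and 10.08, 8.95, 9.17 and 8.84 in those of control mice. The overlap came from RbpjiΔEC 2 and control 1, which were the lowest of their CCR2- groups and the highest of their CCR2+ groups. The other probe set, 1416714_at, had the same arrays at these places, with 9.84 in CCR2- RbpjiΔEC 2 and 9.77 in CCR2- control 1, against 9.59 in CCR2+ RbpjiΔEC 2 and 9.82 in CCR2+ control 1. Without either array of the pair in its genotype, all 10 genes had no overlap. The Irf8 difference was 0.96 (SE 0.34) in RbpjiΔEC mice and 1.06 (SE 0.34) in control mice, and on the intensities as deposited it was 0.43 and 0.69. CCR2- control 1 also had the highest macrophage marker sum of the CCR2- arrays, 14958. Its part in the Irf8 value was not tested.

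**Figure D2:**
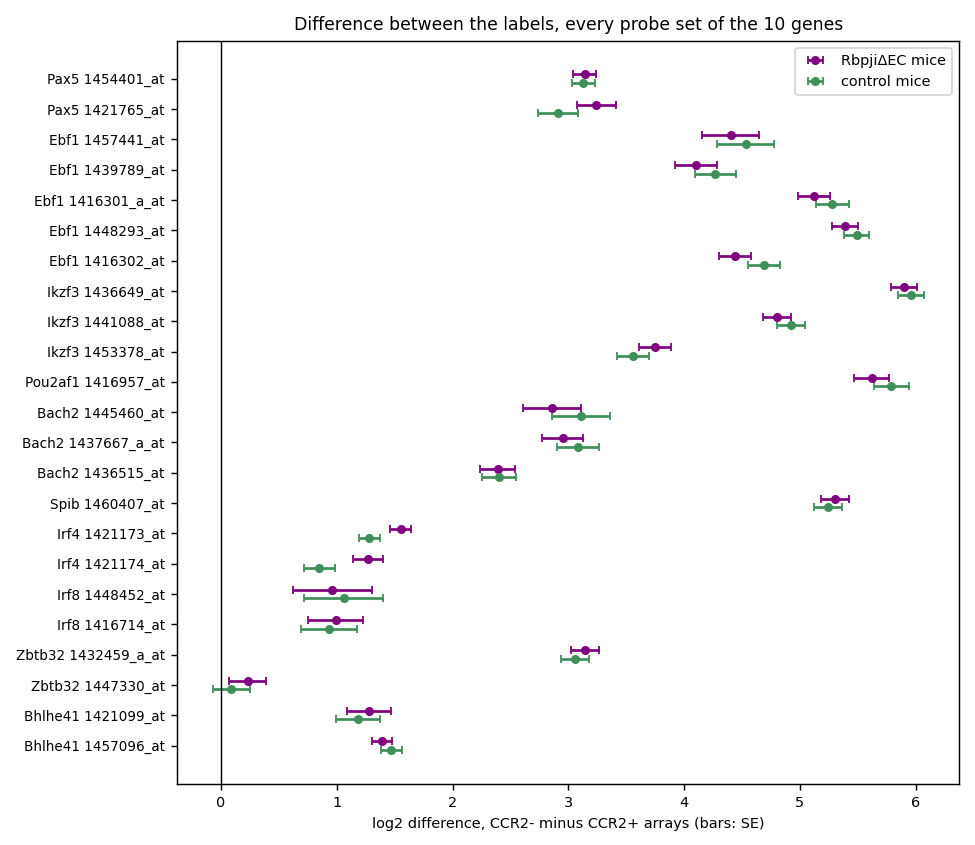
Log2 difference, CCR2- minus CCR2+ arrays, of all 23 probe sets of the 10 genes, with bars for the limma SE and RbpjiΔEC mice drawn above control mice. The probe sets of Ikzf3, Pou2af1, Spib and Ebf1 reach the largest differences, 5.96 at most, and Zbtb32 1447330_at lies nearest to 0.

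Over 8 against 8 arrays, 9 genes (13.5% of all genes) and 20 of 23 probe sets (12.7% of all 34958 probe sets with 1 gene symbol) had every CCR2- array above every CCR2+ array. The 3 probe sets with overlap were both of Irf8 and Zbtb32 1447330_at.

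Whether loss of endothelial Rbpj changed these genes was asked within each label. Of the 10 genes, 0 passed limma's test at adjusted p under 0.05 within the CCR2- arrays, within the CCR2+ arrays, or for the interaction of genotype and label. Over all 18194 genes the counts were also 0 (0% in each), while 390, 830 and 555 genes had an unadjusted p under 0.05, among them 0 of the 10. The median genotype difference of the 10 genes, RbpjiΔEC minus control, was -0.02 in the CCR2- arrays and -0.01 in the CCR2+ arrays, against 0 and -0.01 over all genes. Arrays of the genotypes overlapped for all 10 genes in both labels. Genes without overlap made up 0.797% (higher in RbpjiΔEC) and 0.758% (lower) of all genes in the CCR2- arrays and 2.08% and 1.3% in the CCR2+ arrays.

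The intervals show what these arrays could bound. For Pax5 the genotype difference was 0.01 in the CCR2- arrays (95% interval -0.19 to 0.21, limma adjusted p = 1). For Ikzf3 it was -0.09 (-0.32 to 0.15), for Pou2af1 -0.05 (-0.36 to 0.26) and for Spib 0.00 (-0.26 to 0.27). For the noisier Ebf1 and Irf8 it was 0.01 (-0.53 to 0.54) and -0.08 (-0.80 to 0.64). In the CCR2+ arrays it was 0.28 for Bach2 (-0.26 to 0.81, limma adjusted p = 0.966), and the other 2 Bach2 probe sets were at -0.04 and -0.23. For Bhlhe41 it was -0.20 (-0.59 to 0.20), and its other probe set was at 0.03. Among all 23 probe sets, the 95% interval of 1 genotype difference left out 0, that of Ikzf3 1453378_at in the CCR2+ arrays. It read 6.20, 6.21, 6.01 and 6.12 in RbpjiΔEC mice, against 6.14, 6.53, 6.57 and 6.57 in control mice, all within the range of the control probe sets or below it. The difference was -0.31 (-0.61 to -0.02, limma unadjusted p = 0.0401, adjusted p = 0.962 over probe sets), and the other 2 Ikzf3 probe sets were at -0.02 and -0.01.

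Irf4 had the smallest unadjusted p of the 10 genes for the interaction. Its genotype difference was 0.17 (SE 0.09) in the CCR2- arrays and -0.10 (SE 0.09) in the CCR2+ arrays, and the interaction was 0.27 (SE 0.13, limma unadjusted p = 0.051, adjusted p = 0.999). The other Irf4 probe set, 1421174_at, had an interaction of 0.43 (SE 0.19, limma unadjusted p = 0.0354, adjusted p = 0.998 over probe sets). Over the alternative settings tried the Irf4 interaction stayed between 0.22 and 0.45, with a smallest limma adjusted p of 0.781. It did not pass the test.

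**Figure D3:**
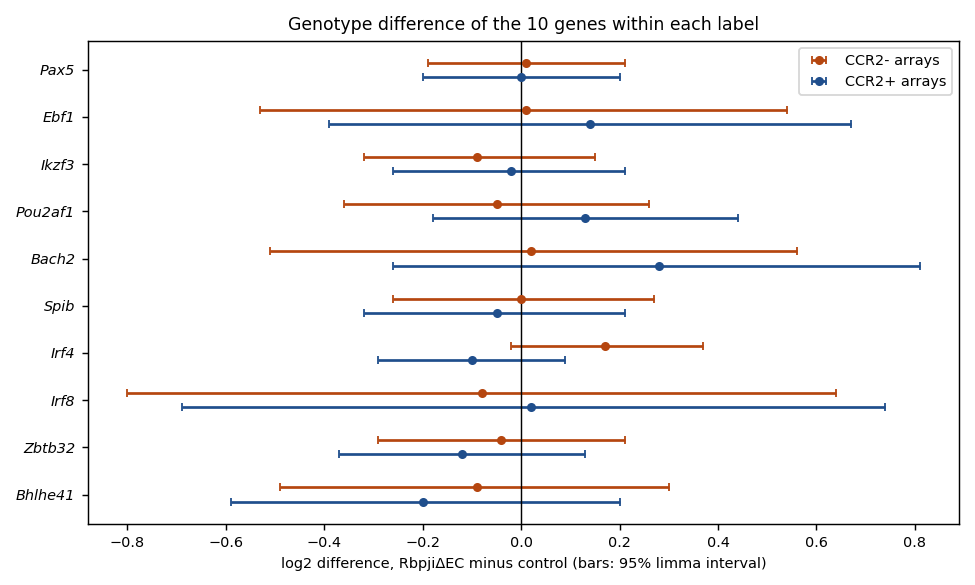
Log2 difference, RbpjiΔEC minus control, of the 10 genes within the CCR2- and within the CCR2+ arrays, with 95% limma intervals from the fit over 16 arrays. All 20 intervals include 0, and those of Irf8 are the widest, from -0.80 to 0.64 in the CCR2- arrays and from -0.69 to 0.74 in the CCR2+ arrays. Ikzf3, Pou2af1 and Spib lay near the control probe sets in the CCR2+ arrays, where a change may be understated.

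Which CCR2- arrays read highest and lowest differed between genes and between probe sets of a gene. Ebf1 1457441_at and Bach2 1445460_at had their highest CCR2- value in control 1 (12.54 and 12.28) and their lowest in control 4 (11.00 and 11.30). Pax5, Spib and Irf8 were the other way round, with their lowest CCR2- value in control 1 (10.12, 11.73 and 9.41) and their highest in control 4 (10.60, 12.26 and 10.79). The other probe sets of Ebf1, Bach2 and Pax5 did not all share these orders. Pax5 1421765_at was lowest in control 1, at 9.70, but highest in RbpjiΔEC 4, at 10.59, with control 4 at 10.26. Ebf1 1416301_a_at was lowest in control 1, at 11.20. Bach2 1437667_a_at read 11.61 there against 11.75 in control 4, and Bach2 1436515_at 10.59 against 10.95. The marker sum of macrophages was also highest of the CCR2- arrays in control 1 and stood at 10400 in control 4. CCR2- control 1 had the lowest mean of the deposited columns as well, 481. The part of either in this spread was not tested.

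**Figure D4:**
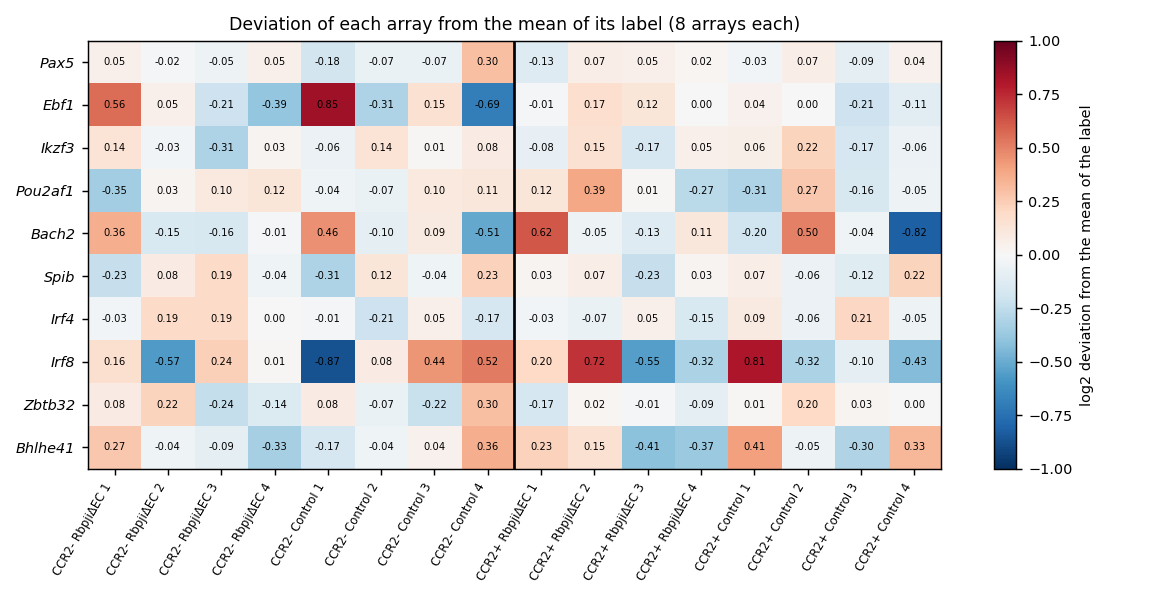
Deviation of each array from the mean of its own label, in log2 units, for the probe sets that stand for the 10 genes. The widest departures among CCR2- arrays are those of Irf8 in control 1 (-0.87) and of Ebf1 in control 1 (0.85) and control 4 (-0.69). Among CCR2+ arrays they are those of Bach2 and Irf8.

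Genes with a profile most like a member were looked up over the 16 arrays, by the root mean square difference between profiles centred on their own means. Closest to Pax5 were Bend5 at 0.118, the member Zbtb32 at 0.131, Uck2 at 0.139, Twsg1 at 0.139 and Tmem163 at 0.159. For Irf4 they were Aff1 at 0.143, Prps2 at 0.147, Prkcz at 0.154, Nubp1 at 0.156 and Arhgap27 at 0.159. For Irf8 the nearest, Rbm14, was at 0.299 and the fifth, Sema5a, at 0.341. Among the members, Ikzf3 and Pou2af1 lay 0.254 apart, Pou2af1 and Spib 0.31, and Irf4 and Bhlhe41 0.324. The genes nearest to Pax5 differed between the labels by 3.03 to 3.32 in RbpjiΔEC mice and by 3.00 to 3.27 in control mice, next to 3.14 and 3.13 for Pax5. That closeness follows from the choice, since these genes were picked for likeness over the arrays of both labels.

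The genes around the 10 were described in the same way, from lists chosen with these data known. Of 20 other lymphoid factors, 14 were higher in every CCR2- array in RbpjiΔEC mice and 15 in control mice, 2 were lower in both, and the medians were 0.98 and 1.11. Ets1, a lymphocyte Ets factor, differed by 5.76 and 5.83, and Bcl11a, which early B cell development needs, by 4.83 and 5.17. Lower in the CCR2- arrays were Spi1, which encodes the master Ets factor of myeloid cells, at -0.59 and -0.94, and Klf2, at -0.47 and -0.76. Among 15 measured targets that Pax5, Ebf1 or Pou2af1 activate in mouse B cells, 15 were higher in both genotypes (medians 2.94 and 2.94). Fcrla differed by 6.60 and 6.54 and Blk, a B cell Src family kinase, by 5.94 and 5.84. Both are also among the B cell markers summed above, as are others of these 15, so the 2 lists are not separate evidence.

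Irf4 promotes the plasma cell programme, and Bach2 and Pax5 restrain it. Leaving out Irf4, 5 of 9 genes were higher, 1 lower and 3 overlapping in both genotypes, with medians of 0.89 and 0.94. Mzb1, a chaperone of antibody secretion, differed by 4.94 and 5.01 and Slamf7, a surface receptor, by 2.96 and 2.87. Prdm1, which encodes the plasma cell repressor Blimp-1, differed by 2.18 and 2.11. Tnfrsf17, the receptor BCMA of plasma cells, was lower, at -0.30 and -0.36, close to the control probe sets in all groups. Xbp1, the secretory pathway factor, differed by -0.67 and -0.48 with overlap.

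The relatives of the members were compared by family. Of 6 other interferon regulatory factors, 2 were higher and 2 lower in RbpjiΔEC mice, and 2 were higher and 3 lower in control mice. Irf5, a macrophage and B cell factor, was higher by 0.61 and 0.77 and Irf3 by 0.48 and 0.48, while Irf7, the interferon-induced member, was lower, at -1.77 and -1.87. Of the 4 other Ikaros family genes, Ikzf1 was higher by 0.63 and 0.75 and Ikzf2, which encodes Helios, was lower, at -1.04 and -1.25. Of 14 measured macrophage factors, 10 were lower and 1 (Irf5) higher in both genotypes, with medians of -1.77 and -1.60. Maf differed by -4.36 and -3.89, and Gata6, the identity factor of large peritoneal macrophages, by -4.18 and -4.27. In the genotype tests and the interaction, 0 genes of these lists passed.

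**Figure D5:**
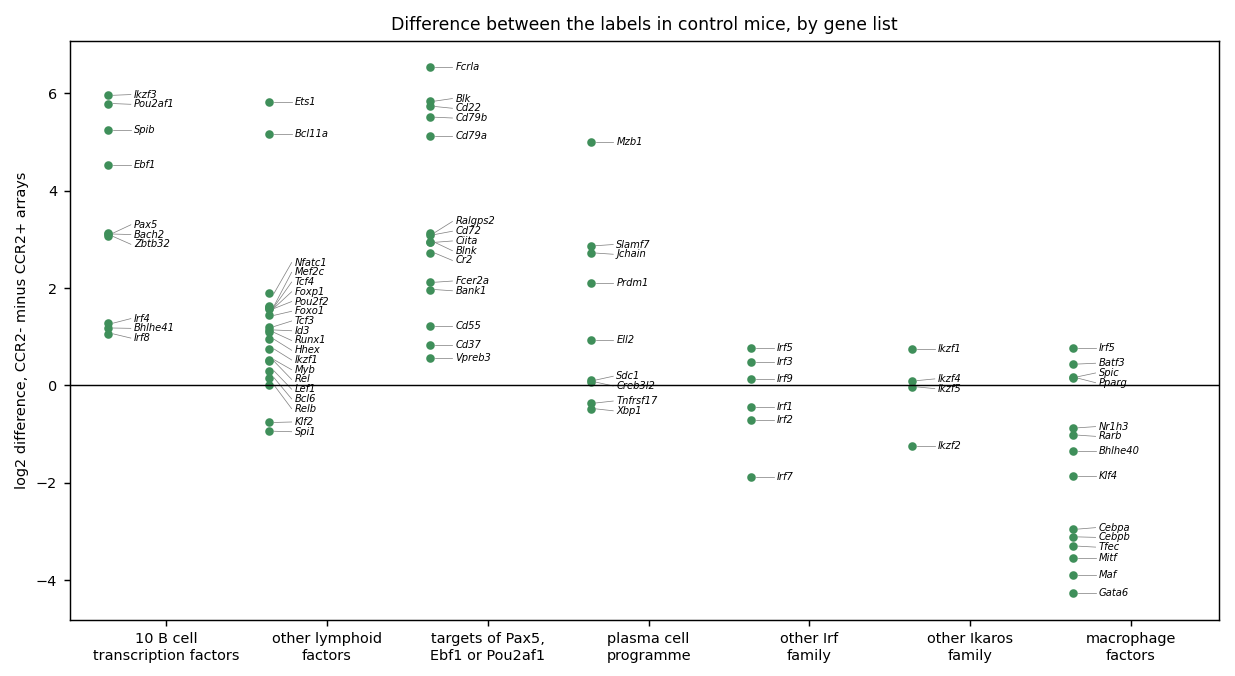
Log2 difference, CCR2- minus CCR2+ arrays of control mice, for the 10 genes and the lists around them, with 1 point per gene and a thin line to its name. The targets of Pax5, Ebf1 or Pou2af1 are all above 0, and most macrophage factors lie below 0, down to -4.27 for Gata6.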

How the data were processed

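RNA of sorted peritoneal TAMs was measured on 16 mouse arrays in 4 groups of 4, taken from the titles. The deposited values are linear probe set intensities. The authors' steps before deposit are not stated in what was used here, detection calls and scan dates were not at hand, and precision is limited by the number of arrays. From these intensities log2 values were computed and quantile normalized over all 16 arrays, with no filter on low values. Probe sets with exactly 1 symbol (34958) were kept, those with several (932) or not listed (9211) were left out, and for 9012 genes with several probe sets the brightest on average represented the gene, leaving 18194. One model with a mean per group was fitted with limma 3.58.1 (R 4.3.3), with two-sided p-values adjusted over all genes (Benjamini-Hochberg) and called under 0.05. If arrays of a group do not come from separate animals, the p-values measure a spread that may be technical. Intervals are 95% limma intervals. In the text, errors of means are SDs over 4 arrays and errors of differences are limma SEs.

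The members and lists were chosen with earlier results of these data known. The rule for named genes takes all 10 members with every probe set, up to 2 genes per direction from each list by the largest difference, the 5 genes most like Pax5, Irf4 and Irf8 (predicted genes left out), and Rbpj, Ccr2, Adgre1, Itgam and Ptprc. Between the labels, CCR2- minus CCR2+ in RbpjiΔEC and control mice, Itgam differed by -3.40 and -3.25 and Ptprc by -0.12 and 0.34. Prdm1, Ctla4, Ptpn22, Cd9, Ccr7, Siglech and Bst2 were named after their values were seen. Promoters are RefSeq windows (GRCm38.p6) cut to the 250 bases before the start.

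On simulated data with 18194 genes, 50 were changed at each size of 0.5, 1, 1.5 and 2 log2 units, all together. For genotype within CCR2-, limma recovered 40%, 94%, 100% and 100% of them by size, and 10 further calls were false. For genotype within CCR2+ the shares were 32%, 88%, 98% and 100%, and 11 further calls were false. Many genes changed together make the adjusted cutoff easier to reach, so these rates may overstate the recovery of a gene that changes alone. Recovery of a lone gene was not tested. The simulated noise was normal and independent between genes and arrays, with a spread per gene shared by all groups. The rates of the labels therefore differ only by the random draw, and noise shared by the genes of an array was left out. Alternatives were median centring, the intensities as deposited, leaving out dim genes, the mean of all probe sets, a fit over probe sets, eBayes with trend and robust, array weights, a fit of 1 label alone, the replicate number as a block and leaving out each array.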

Additional observations from a re-analysis of the deposited data

Results flagged for a closer look

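Each of the 92 groups of 4 arrays (23 probe sets in 4 groups) was examined for an array far from the other 3 by Dixon's criterion, and 8 were found, where chance gives about 1 in 20 groups. Of these, 5 belonged to Ebf1. On 1439789_at, CCR2+ RbpjiΔEC 2 read 6.68 against 7.13 to 7.16 in the other 3 arrays, and CCR2+ control 4 read 6.31 against 7.09 to 7.13. On 1416302_at, CCR2+ RbpjiΔEC 2 read 6.97 against 6.40 to 6.41. In the CCR2- arrays, control 1 read 11.20 on 1416301_a_at against 11.76 to 11.80, and control 4 read 11.44 on 1448293_at against 11.75 to 11.80. CCR2- control 4 was also the lowest of its group on 1457441_at (11.00), 1439789_at (10.91) and 1416302_at (10.87), where it did not meet the criterion. CCR2- control 1 was not the lowest of its group on the other 4 Ebf1 probe sets. For Ikzf3 1453378_at, CCR2+ control 1 read 6.14 against 6.53 to 6.57, below the highest control probe set like the others. Spib read 6.53 in CCR2+ RbpjiΔEC 3 against 6.79 to 6.84. Zbtb32 1432459_a_at read 7.90 in CCR2+ control 2 against 7.70 to 7.73. That array also had a neutrophil marker sum of 2475, the highest of the CCR2+ arrays, whose part was not tested.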

How the results depend on the processing

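The counts of member genes called (0 in each genotype test and the interaction) and of member genes without overlap between the labels (9 in each genotype) kept their value under every alternative run, except that leaving out 1 array gave 9 to 10 without overlap. It was 10 without CCR2- RbpjiΔEC 2, CCR2+ RbpjiΔEC 2, CCR2- control 1 or CCR2+ control 1. Of the values of single genes under the alternatives, 718 kept their direction and, between the labels, moved by less than the spread between arrays. Another 34, all differences between the labels, moved by more, and 88 turned sign, all of them genotype differences or interactions that passed no test. The smallest limma adjusted p of any genotype difference or interaction of the 10 genes over the alternatives was 0.741. On the intensities as deposited, the median difference of all genes was -0.16 in the CCR2- genotype comparison, where quantile normalization gave 0. Between the labels of RbpjiΔEC and control mice it was -0.23 and -0.03, where quantile normalization gave 0.03 and 0.03. The member medians as deposited were -0.12, 2.72 and 2.86.

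Under median centring the genotype difference turned to 0.04 for Ikzf3, 0.08 for Pou2af1 and 0.01 for Zbtb32 in the CCR2- arrays, to 0.00 for Pax5 and -0.02 for Irf8 in the CCR2+ arrays, and the interaction to 0.09 for Ikzf3. As deposited, it turned to -0.14 for Pax5, -0.09 for Ebf1, -0.07 for Bach2 and -0.09 for Spib in the CCR2- arrays, and the interaction to -0.19 for Pax5, -0.06 for Spib, -0.10 for Zbtb32 and -0.13 for Bhlhe41. With the mean of all probe sets, it turned to -0.04 for Ebf1 and -0.13 for Bach2 in the CCR2- arrays, to -0.04 for Pax5 and -0.07 for Irf8 in the CCR2+ arrays, and the interaction to 0.00 for Ikzf3. With array weights, it turned to -0.01 for Ebf1, 0.02 for Pou2af1, 0.00 for Bach2 and 0.00 for Spib in the CCR2- arrays, to -0.01 for Pou2af1 and -0.17 for Irf8 in the CCR2+ arrays, and the interaction to 0.03 for Pou2af1. In a fit of the CCR2- arrays alone Ebf1 was at 0.00. The cause was not tested.

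Leaving out 1 array, the CCR2- genotype difference lay between -0.05 and 0.11 for Pax5, -0.22 and 0.29 for Ebf1, -0.15 and 0.00 for Ikzf3, -0.09 and 0.06 for Pou2af1, -0.14 and 0.18 for Bach2, -0.10 and 0.08 for Spib, -0.39 and 0.09 for Irf8, -0.12 and 0.05 for Zbtb32 and -0.20 and 0.01 for Bhlhe41. The CCR2+ one lay between -0.03 and 0.04 for Pax5, -0.09 and 0.05 for Ikzf3, -0.10 and 0.01 for Spib and -0.21 and 0.30 for Irf8. The interaction lay between -0.05 and 0.11 for Pax5, -0.37 and 0.15 for Ebf1, -0.13 and 0.03 for Ikzf3, -0.05 and 0.13 for Spib, -0.41 and 0.13 for Irf8 and -0.01 and 0.23 for Bhlhe41.

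The replicate numbers are shared by the groups, but not every same-numbered pair deviated together. Correlations of deviations were -0.38 to 0.40, with 7 of 16 over 0.1. In 14 of 32 comparisons an array correlated best with its own number, where 4 equally likely partners give 8. This is a hint from the data, not the design, and the numbers were not taken as pairs. With the replicate block 0 of the 10 genes were called, and over all genes 0, 1 and 0 for CCR2-, CCR2+ and the interaction. Array weights gave 0, 1 and 0, and the fit over probe sets 0, 2 and 0.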

Other observations

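Of 9 measured markers of B cell subsets, 8 were higher in the CCR2- arrays. Of 6 genes of B-1 cells, the self-renewing B cells of body cavities, 5 were higher in every CCR2- array than in every CCR2+ array of both genotypes. Ptpn22, a phosphatase gene, differed by 3.81 (SE 0.14) in RbpjiΔEC mice and 3.70 (SE 0.14) in control mice, and Ctla4, an inhibitory receptor gene, by 3.35 (SE 0.18) and 2.88 (SE 0.18). Cd9, a tetraspanin that macrophages also express, was lower, at -2.46 (SE 0.21) and -2.50 (SE 0.21). The summed intensities of the 6 genes, Cd9 included, were 8243 to 10759 and 7832 to 13100 in the CCR2- arrays of RbpjiΔEC and control mice. In the CCR2+ arrays they were 7223 to 8764 and 7827 to 9003. All 3 measured genes of follicular B cells were higher, and of these Ccr7, which dendritic and T cells also use, differed by 3.86 (SE 0.11) and 3.74 (SE 0.11). These lists were written with the data known, and the values are given with no test.

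T cell markers had summed intensities of 930 to 1059 and 909 to 1353 in the CCR2- arrays of RbpjiΔEC and control mice, against 831 to 941 and 740 to 800 in the CCR2+ arrays. The neutrophil sums were 523 to 640 and 522 to 4843 in the CCR2- arrays and 567 to 627 and 689 to 2475 in the CCR2+ arrays. The plasmacytoid dendritic cell sums, of a cell type that also uses Spib and Irf8, were 6761 to 7862 and 6978 to 7509 in the CCR2- arrays, against 4317 to 5011 and 3710 to 4854 in the CCR2+ arrays. Of the 5 genes in that sum, Tcf4, which is also among the lymphoid factors described above, differed by 1.51 and 1.61. Siglech differed by 0.14 and 0.29 and Bst2 by -0.46 and -0.61. Without overlap, 1 gene was higher and 1 lower in RbpjiΔEC mice, and 3 higher and 0 lower in control mice. The sums of dendritic cells were 5026 to 7675 and 3828 to 7762, against 1702 to 3581 and 2081 to 2790. Of the 6 genes in that sum, 4 were higher without overlap in both genotypes and 2 overlapped. Ccr7, also among the follicular B cell genes above, is 1 of the 6 and differed by 3.86 and 3.74. The part of these cell types in the values of Spib, Irf4 and Irf8 was not tested.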
